A study of Mus musculus with 18 samples.

Results

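Heat shock for 135 min was compared with the unheated control in NIH3T3 cells, an immortalised line of mouse embryo fibroblasts that stably expressed DD-sfGFP. This transgene joins a destabilizing domain (DD), a mutant FKBP12 that unfolds without its ligand Shield-1, to superfolder GFP. Both groups carried it, and the ligand was kept in the medium, so the domain was folded in both. The comparison took 6 of the 18 samples of the series, chosen by their labels: 3 samples labelled HS 135 min, from cells moved to 42°C for 135 min, and 3 samples labelled control 0 min, kept at 37°C. The other samples were 3 heated for 45 min, which serve below as an earlier time, and 9 treated with tunicamycin, which are not described here. The cells had been sorted for high DD-GFP, all came from 1 line, and no unheated sample was taken at 135 min, so handling time and heat cannot be told apart. Labels name 3 replicates a group but not whether these were separate cultures, and p-values then measure the spread between these samples, which may be technical.

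The values are read counts per gene, given as CPM (the count relative to the library total) scaled by TMM, a correction for differences in library composition. Between 40134634 and 62291185 reads were counted on genes in each of the 6 samples, and 3 reads corresponded to 0.0482 to 0.0747 CPM (counting error only). Across genes, log2 CPM correlated between replicates with r of 0.976 to 0.994 in the control and 0.934 to 0.985 after heat. The heated replicates 1 and 2 stood farthest apart, and their deviations from the group mean followed transcript GC content, with Spearman rho across 12395 genes of -0.66 and 0.68. Control replicate 1 also deviated with GC content, with rho 0.52. The log2 fold change itself had rho 0.39 with GC content, so counts after an offset for GC content are given beside the gene groups, and its part in the results was not tested otherwise. Of the fibroblast markers, 11 were tested, Col3a1 was induced and none was repressed (4 induced with the GC offset). The 11 markers of other cell types together held 289 to 450 reads in the control and 463 to 576 after heat, most of them from Cd68 (6.77 ± 1.36 and 6.67 ± 1.19 CPM, SD, n = 3). The heated libraries were deeper. Relative to library totals without TMM, the markers summed to 9.67, 8.42 and 6.98 CPM in the control and 9.32, 9.07 and 7.43 CPM after heat, so their sums overlapped. Only 5 of these 11 had enough reads to be tested, and none passed, with a median log2 fold change of 0.94. After heat 2 of the 5 lay above all controls, against 18.1% of all genes. Cdh1 held 10, 9 and 9 reads in the control and 33, 12 and 32 after heat, and Des 20, 21 and 18 against 30, 56 and 51. The epithelial keratin gene Krt8, too low for the test, went from 0, 1 and 0 to 10, 29 and 24 reads, while Myod1 was at 0 in all 6 samples and Ptprc at 0 or 1. Their part in the results was not tested.

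In the heat shock response, unfolded proteins draw chaperones away from the transcription factor HSF1, which then binds heat shock elements and drives chaperone genes. HSP70 proteins hold unfolded chains, J-domain proteins deliver clients to them, and HSP110 and BAG proteins exchange their nucleotide. Small heat shock proteins bind aggregates, and HSP90 folds kinases and receptors. Stress kinases that phosphorylate eIF2α also raise the factor ATF4, and cells under heat usually slow translation and division.

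Of 12731 genes tested, 605 (4.75%) were induced and 336 (2.64%) were repressed after 135 min of heat, at an adjusted p under 0.05 in the edgeR quasi-likelihood test. The heated and control values did not overlap in 2308 genes (18.1%) that were higher and 2425 genes (19%) that were lower. The shares of all genes given here are the background for every list count below. Induced genes rose by a median of 2.95-fold and repressed genes fell by a median of 2.55-fold. Among induced genes, 40 rose by a log2 of 3 or more, whereas 7 repressed genes fell by that much. Of 2014 genes with a mean over 100 CPM, 7.0% were induced and 2.14% repressed, and of 1876 genes under 1 CPM, 4.1% and 1.6%. These counts rested on single samples. Leaving out control replicate 1, 2 or 3 left 350, 12 or 10 induced and 192, 3 or 1 repressed genes. Leaving out heated replicate 1, 2 or 3 left 1535, 727 or 11 induced and 932, 509 or 0 repressed genes. With the offset for GC content, 1434 genes (11.3%) were induced and 1182 (9.28%) repressed, and 601 of the 605 and 298 of the 336 were among them. Samples of all 6 groups in 1 fit gave 1829 and 1414 genes. Of the genes called in either direction 64.3% were induced, and 53.9% when libraries were scaled to total counts, which moved the median log2 fold change of all genes by -0.167.

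**Figure D1:**
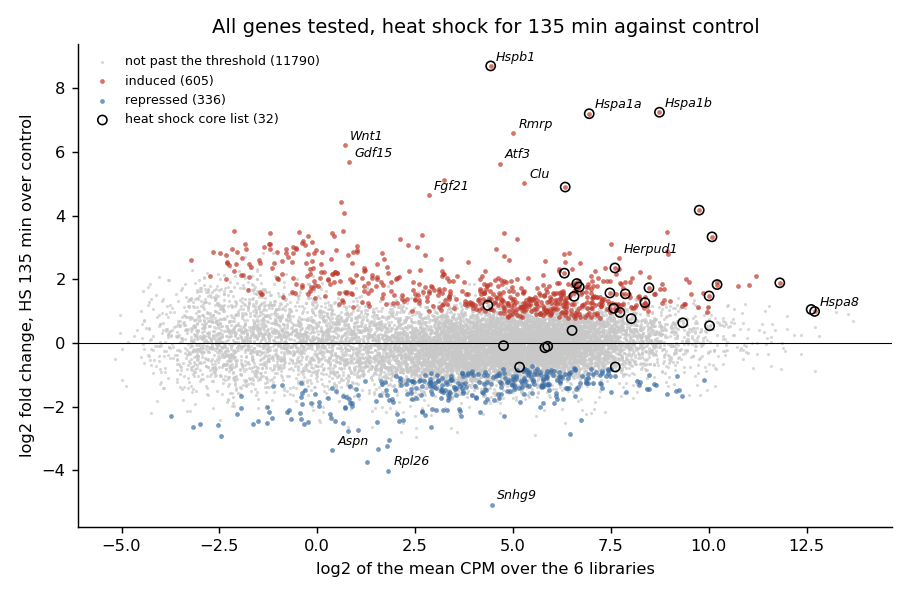
Each point is 1 of the 12731 genes tested, with the log2 of its mean CPM over 6 samples on the x axis and its log2 fold change, HS 135 min over control, on the y axis. Red and blue points are the 605 induced and 336 repressed genes, and circles mark the 32 tested genes of the heat shock core list, of which Hspb1 lies highest at 8.70.

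**Figure D2:**
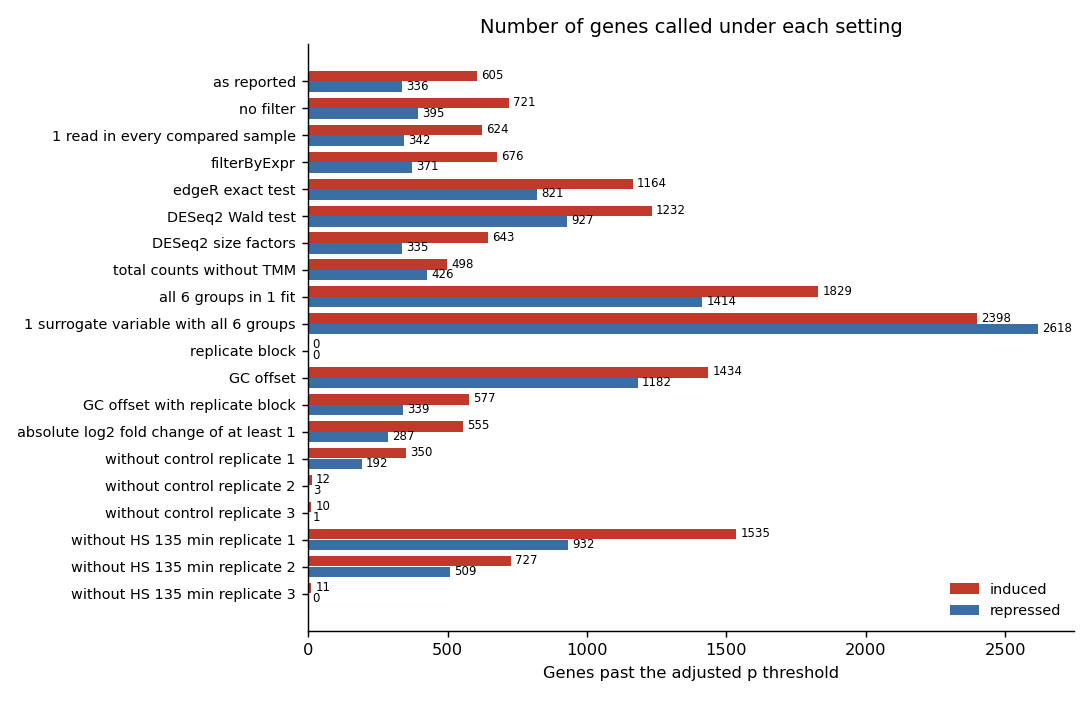
Bars give the number of induced (red) and repressed (blue) genes on the x axis for each setting on the y axis, from as reported (605 and 336) down to fits that each leave out 1 sample. Without control replicate 2 or 3 or heated replicate 3, between 10 and 12 induced genes were left.

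Only 9 of the 605 induced genes and none of the 336 repressed genes passed the threshold in all 6 fits that each left out 1 sample. They were Hspa1b, Hspa1a, Wnt1, Atf3, Clu, Dnaja4, Fgf21, Herpud1 and Dnajb1, named for this result after their values were seen. Among them, 2 are HSP70 chaperones, 2 are J-domain cochaperones, and Herpud1 acts in the degradation of ER proteins. Atf3 is a stress transcription factor, Clu an extracellular chaperone, and Wnt1 and Fgf21 are secreted signals.

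Of 11 HSP70 and HSP110 genes tested, 5 were induced and none repressed, with a median log2 fold change of 0.76, against -0.02 over all genes. Hspa1b, a stress-inducible HSP70 (mm9 chr17:35093374-35096183), was at 6.13, 5.35 and 5.32 CPM in the control and 256, 1111 and 1181 CPM after heat. Its heated replicate 1 was the lowest of the 3 but lay far above every control (log2 fold change 7.24 ± 0.65 SE, adjusted p = 0.00580). Hspa1a, its tandem neighbour (mm9 chr17:35106304-35109101), was at 1.39, 1.96 and 1.62 CPM in the control and 72.6, 303 and 358 CPM after heat (log2 fold change 7.20 ± 0.67 SE, adjusted p = 0.00580). The near-identical pair could exchange reads in counting, so the split between them is uncertain. Hsph1, an HSP110 exchange factor, was at 155, 228 and 205 CPM in the control and 2643, 1208 and 2066 CPM after heat (log2 fold change 3.33 ± 0.35 SE, adjusted p = 0.00792). Here heated replicate 1 was the highest and replicate 2 the lowest. Hspa4l, another HSP110 protein, followed the same order at 32.0, 49.2 and 46.8 CPM in the control and 213, 93.3 and 159 CPM after heat (log2 fold change 1.86 ± 0.33 SE, adjusted p = 0.0231). The constitutive HSP70 Hspa8 was already abundant at 4089.7, 4725 and 4601 CPM in the control and 9608, 8649 and 8328 CPM after heat (log2 fold change 0.99 ± 0.23 SE, adjusted p = 0.0442). Of these 5 calls, 3, 2, 2 and 2 remained without control replicates 1, 2 and 3 and heated replicate 3. All 5 stayed with the GC offset.

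**Figure D3:**
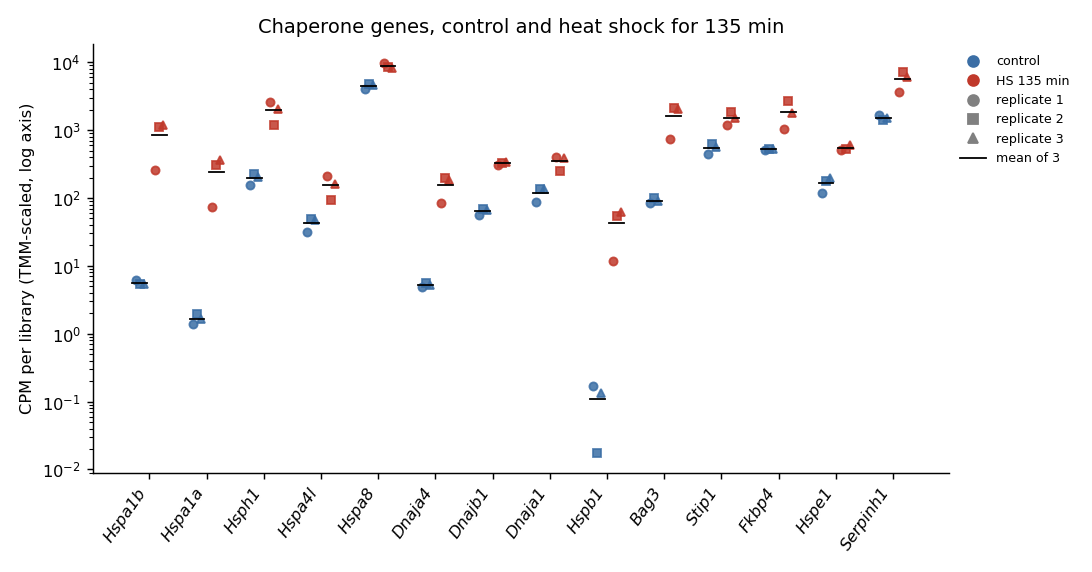
CPM of 14 chaperone genes (x axis) is shown on a log y axis for each control sample (blue) and each HS 135 min sample (red), with marker shape giving the replicate and the line the mean of 3. The groups do not overlap in any of these genes. Heated replicate 1 is lowest of the heated samples in Hspa1b, Hspa1a, Dnaja4, Dnajb1, Hspb1, Bag3, Stip1, Fkbp4, Hspe1 and Serpinh1. It is highest in Hsph1, Hspa4l and Hspa8.

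J-domain cochaperones split by member. Of 24 tested, 4 were induced and 1 repressed, and the median log2 fold change was 0.10 (-0.08 when scaled to total counts). Dnaja4, a type A cochaperone, was at 4.88, 5.64 and 5.18 CPM in the control and 85.3, 199 and 183 CPM after heat (log2 fold change 4.89 ± 0.37 SE, adjusted p = 0.00485). Dnajb1, the main stress-inducible J-domain protein, was at 55.9, 68.5 and 66.4 CPM in the control and 308, 323 and 344 CPM after heat (log2 fold change 2.35 ± 0.19 SE, adjusted p = 0.00534). Its 3 heated values lay within a narrow band, unlike those of Dnaja4. Dnajb2 rose by 2.53 and Dnaja1 by 1.54 on the log2 scale, whereas Dnajc27, a GTPase-like protein with a J domain, fell from a mean of 14.0 ± 0.454 to 5.06 ± 0.223 CPM (SD, n = 3). Of these 5 calls, 4, 2, 2 and 2 remained without control replicates 1, 2 and 3 and heated replicate 3, and the GC offset gave 5 induced and 1 repressed.

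Of 14 small heat shock and BAG genes, 4 were induced and none was repressed (median 0.66). Hspb1, the small heat shock protein HSP27 (mm9 chr5:136363789-136365433), had the largest log2 fold change of the 605 induced genes. It was at 0.171, 0.0174 and 0.133 CPM in the control and 11.8, 55.2 and 62.0 CPM after heat (log2 fold change 8.70 ± 0.92 SE, adjusted p = 0.00800). Its controls rested on 7, 1 and 6 reads against 767, 2560 and 3623 after heat, and the ratio of pooled CPM was 374.6 with an exact 95% interval of 223.1 to 685.5 for counting error. Bag3, an exchange factor that works with small heat shock proteins in selective autophagy, was at 83.1, 101 and 89.4 CPM in the control and 749, 2145 and 2016 CPM after heat (log2 fold change 4.17 ± 0.43 SE, adjusted p = 0.00792). Hspb8, its partner, rose from 89.7 ± 13.2 to 266 ± 11.1 CPM and Bag2 from 38.6 ± 1.90 to 111 ± 34.7 CPM (SD, n = 3). The 2 groups did not overlap in any of the 4 genes. Of these 4 calls, 4, 1, 0 and 0 remained without control replicates 1, 2 and 3 and heated replicate 3, and the GC offset gave 5 induced.

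Among 21 HSP90 genes and cochaperones tested, 5 were induced and none was repressed, with a median of 0.06 (-0.13 when scaled to total counts). Fkbp4, an immunophilin of steroid receptor complexes, was at 508, 530.3 and 522 CPM in the control and 1032, 2711 and 1808 CPM after heat (log2 fold change 1.83 ± 0.35 SE, adjusted p = 0.0265). Stip1, which bridges HSP70 and HSP90, was at 449, 624 and 562 CPM in the control and 1203, 1825 and 1514 CPM after heat (log2 fold change 1.47 ± 0.25 SE, adjusted p = 0.0207). Ahsa1 and Ahsa2, activators of the HSP90 ATPase, had log2 fold changes of 1.27 and 1.53. Neither cytosolic HSP90 gene passed the test, and their difference from the cochaperones was not tested. Chosen after their values were seen, Hsp90ab1 had a log2 fold change of 1.05 (adjusted p = 0.0574) and Hsp90aa1 one of 0.54 (adjusted p = 0.486). Of the 5 calls, 4, 0, 0 and 0 remained without control replicates 1, 2 and 3 and heated replicate 3, and 6 genes were induced and 1 was repressed with the GC offset.

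The heat shock core list holds HSF1 targets known from other cells, but it was drawn up with earlier results of these data known. It had 18 of 32 tested members induced (56.2%) and none repressed, with a median of 1.47. Together the 32 genes took 1.25%, 1.71% and 1.71% of the reads in the control samples and 3.68%, 3.25% and 3.56% after 135 min. The mean rose from 1.55% ± 0.266 to 3.50% ± 0.223 (SD, n = 3), a 2.25-fold difference (exact two-sided permutation test, p = 0.1, the smallest that 3 against 3 allows). At 45 min the share was 1.63%, 1.49% and 1.83%, of which 2 lay within the range of the controls and 1 above it. In every sample Hspa8, Hsp90ab1 and Serpinh1 made up 59.5% to 70.9% of the reads of the list. Of the 18 calls, 13, 5, 4 and 4 remained without control replicates 1, 2 and 3 and heated replicate 3, and 21 genes were induced with the GC offset.

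Heat shock elements are runs of the unit GAA in alternating orientation. The 250 bases before each RefSeq start (GRCm38.p6) were searched on both strands for 3 units in a row that alternate between GAA and TTC, starting with either and with any 2 letters between neighbours. Promoters were matched for 453 of the 605 induced genes (74.9%), a coverage held too low for a share over induced genes to be read. That check is void, and shares of the matched genes are given below as description only. Among all 32851 promoters of the table, 0.466% held the exact element. Counted per gene, 45 of the 10007 tested genes with a promoter held it (0.45%), most of them not induced. Of the 453 matched induced genes 3 did (0.66%), and their windows are shown because they are the matched induced genes with a full element. The core heat shock gene Hspd1 also held the full element but was not induced. Sync encodes an intermediate filament protein, Kctd18 a BTB-domain protein, and Hspe1 the mitochondrial cochaperonin HSP10. Capitals mark the element or 2 overlapping elements, with up to 20 bases on either side. The windows lie at chr1:55088039-55088096 on the plus strand, chr1:57970205-57970262 on the minus strand and chr4:129287460-129287512 on the plus strand of GRCm38.p6.
Hspe1: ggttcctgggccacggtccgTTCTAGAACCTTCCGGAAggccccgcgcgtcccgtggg
Kctd18: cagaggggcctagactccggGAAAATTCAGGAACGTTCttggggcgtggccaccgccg
Sync: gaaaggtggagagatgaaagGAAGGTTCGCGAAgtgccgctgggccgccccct
Hspe1 was at 118, 178 and 198 CPM in the control and 513, 528 and 595 CPM after heat (log2 fold change 1.73 ± 0.25 SE, adjusted p = 0.0155). Kctd18 was at 7.40, 6.43 and 7.12 CPM in the control and 21.5, 37.1 and 31.2 CPM after heat (log2 fold change 2.10 ± 0.27 SE, adjusted p = 0.0127). Sync, near the detection limit in the control, was at 0.269, 0.347 and 0.156 CPM in the control and 0.908, 2.48 and 1.30 CPM after heat (log2 fold change 2.57 ± 0.49 SE, adjusted p = 0.0265). In each of the 3 genes every heated value exceeded every control value. Leaving out control replicate 2 or 3 or heated replicate 3, none of the 3 was past the threshold.

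Windows in which 1 letter differs from the element are shown for 4 chaperone genes, among the largest rises of the core genes that hold such a match, chosen after their values were seen. Bag3, which rose more than Hsph1, holds no match in these 250 bases. Capitals again mark the match, or overlapping matches. The windows lie at chr5:135887782-135887834 (plus), chr17:34959315-34959372 (minus), chr9:54699439-54699496 (plus) and chr5:149636337-149636389 (minus).
Hspb1: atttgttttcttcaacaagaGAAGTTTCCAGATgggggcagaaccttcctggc
Hspa1b: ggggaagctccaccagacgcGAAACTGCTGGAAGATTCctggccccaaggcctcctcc
Dnaja4: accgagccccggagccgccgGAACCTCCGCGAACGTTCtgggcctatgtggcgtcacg
Hsph1: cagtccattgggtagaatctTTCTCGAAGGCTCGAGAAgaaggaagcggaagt
The window of Hspa1a had the same letters as that of Hspa1b. With up to 1 differing letter, 6.08% of all promoters held the element. Counted per gene, at any of its starts, 5.53% of 10007 tested genes held it. Of the 27 tested core genes with a promoter in the table, 11 did (40.7%), but the list consists of known HSF1 targets, so this share is no independent evidence. The others were Hspa1a, Hspe1, Hspd1, Dnaja1, Dnajb4, Fkbp4 and Zfand2a. The same 11 genes held 1 inverted pair of units, GAANNTTC or TTCNNGAA, against 12.8% of all promoters and 11.9% of the tested genes. The pair is a part of the element, so most matches hold it by construction and this is not a separate observation. Of the 453 matched induced genes, 7.73% held the element with up to 1 differing letter and 12.4% held the inverted pair. Those shares are incomplete, since the promoters of the other induced genes were not matched. A match of letters is a description and shows no binding.

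Several protein quality control groups did not move with the chaperones. None of 15 subunits of TRiC, the cytosolic chaperonin, and of prefoldin passed the test, and the median was -0.58. Cct3 went from 414 ± 61.6 to 253 ± 76.4 CPM (SD, n = 3, adjusted p = 0.122). Of 19 mitochondrial chaperones and proteases, Hspe1 alone was induced (5.26%, against 4.75% over all genes), and none of 5 heat shock factor genes passed the test. Hsf1 itself had a log2 fold change of 0.35 (adjusted p = 0.388), which turned to -0.02 with the GC offset. Of 48 proteasome genes, none was induced and 1 was repressed, with a median of -0.59, and 19 had all heated values below all controls. Psmb3, a subunit of the core particle, was at 211, 239 and 225 CPM in the control and 100.3, 139 and 115 CPM after heat (log2 fold change -0.93 ± 0.20 SE, adjusted p = 0.0355). With the GC offset 11 proteasome genes were repressed, 4 ubiquitin genes were induced and 1 was repressed, and 2 mitochondrial genes were induced and 1 was repressed. Among 21 ubiquitin genes and partners, Zfand2a, which links arsenite and heat stress to the proteasome, rose from 47.1 ± 1.28 to 159 ± 10.6 CPM and Ubqln1, a ubiquitin receptor, from 106 ± 31.8 to 245 ± 44.3 CPM (SD, n = 3). Ubb, a polyubiquitin gene, had a log2 fold change of 0.95 (adjusted p = 0.0898), with heated replicate 1 near the control level. Of the 3 called genes Psmb3, Zfand2a and Ubqln1, none remained without control replicate 2 or 3 or heated replicate 3.

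Of 35 chaperones and stress genes of the endoplasmic reticulum (ER), 8 were induced and none was repressed, with a median of 0.68. In 20 of the 35 the heated values lay above all controls, against 18.1% of all genes. Herpud1, part of the ER degradation complex, was at 48.3, 57.8 and 64.3 CPM in the control and 339, 411 and 325 CPM after heat (log2 fold change 2.66 ± 0.22 SE, adjusted p = 0.00534). It held the threshold whichever sample was left out. Syvn1, the ubiquitin ligase of that complex, rose from 91.1 ± 26.9 to 336 ± 83.0 CPM, and Sdf2l1, an ER cochaperone, from 25.5 ± 4.67 to 75.4 ± 14.4 CPM (SD, n = 3). Serpinh1, the collagen chaperone HSP47 and also a core heat shock gene, was at 1687, 1424 and 1486 CPM in the control and 3619, 7227 and 6145 CPM after heat (log2 fold change 1.89 ± 0.31 SE, adjusted p = 0.0199). Hspa5, the ER HSP70, rose less, by a log2 of 0.96 ± 0.20 (SE, adjusted p = 0.0312). Of these 8 calls, 4, 1, 1 and 1 remained without control replicates 1, 2 and 3 and heated replicate 3, and 19 genes were induced with the GC offset.

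In the integrated stress response, the ATF4 and CHOP arm, 10 of 23 genes were induced and none was repressed (median 0.88). Atf3 was at 1.20, 0.972 and 0.845 CPM in the control and 26.7, 62.1 and 59.8 CPM after heat (log2 fold change 5.62 ± 0.42 SE, adjusted p = 0.00485). Chac1, which degrades glutathione, was at 49.6, 30.3 and 34.2 CPM in the control and 171, 425 and 377 CPM after heat (log2 fold change 3.09 ± 0.39 SE, adjusted p = 0.0124). Ddit3, the transcription factor CHOP, rose by 2.32 and Trib3, a pseudokinase that it induces, by 2.27 on the log2 scale. The others were Atf4, Sesn2, Nupr1, Stc2, and the eIF2α phosphatase subunits Ppp1r15b and Myd116, with log2 fold changes of 0.88 to 2.19. Of these 10 calls, 6, 1, 1 and 1 remained without control replicates 1, 2 and 3 and heated replicate 3, and 13 genes were induced with the GC offset.

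Other large rises from low levels, grouped after their values were seen, included genes of secreted proteins. Clu, clusterin, an extracellular chaperone (mm9 chr14:66587320-66600382), was at 2.22, 2.24 and 2.58 CPM in the control and 44.9, 107 and 76.3 CPM after heat (log2 fold change 5.01 ± 0.37 SE, adjusted p = 0.00485). Wnt1, a developmental signal, was at 0.0244, 0.0695 and 0.0222 CPM in the control and 1.82, 3.88 and 3.93 CPM after heat (log2 fold change 6.20 ± 0.57 SE, adjusted p = 0.00580). Its controls held 1, 4 and 1 reads, below or near the floor, and the ratio of pooled CPM was 66.4 with an exact 95% interval of 30.3 to 181.8 for counting error. Fgf21, a stress hormone of the FGF family, was at 0.537, 0.434 and 0.690 CPM in the control and 8.0, 18.6 and 14.8 CPM after heat (log2 fold change 4.64 ± 0.42 SE, adjusted p = 0.00580). Gdf15, a stress-induced cytokine of the TGF-β family, was at 0.0977, 0.0174 and 0.0890 CPM in the control and 1.26, 4.44 and 4.58 CPM after heat (log2 fold change 5.68 ± 0.74 SE, adjusted p = 0.0127). It rested on 4, 1 and 4 control reads, with a pooled ratio of 46.6 (24.4 to 102.5). P2rx7, an ATP-gated channel, rose by 4.41 and Pgf, placental growth factor, by 3.52 on the log2 scale. Gdf15, P2rx7 and Pgf each lost the call without control replicate 2 or 3 or heated replicate 3, while Clu, Wnt1 and Fgf21 held in all 6 such fits.

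Among 24 NF-κB and cytokine genes, 3 were induced and 1 was repressed (median 0.60). Cxcl10, a chemokine for T cells, was at 0.269, 0.139 and 0.133 CPM in the control and 2.80, 4.03 and 2.33 CPM after heat (log2 fold change 4.08 ± 0.42 SE, adjusted p = 0.00792). Ccl2, a monocyte chemokine, was at 107, 44.9 and 42.3 CPM in the control and 208, 281 and 262 CPM after heat (log2 fold change 1.95 ± 0.38 SE, adjusted p = 0.0277), with control replicate 1 far above the other 2 controls. Nfkbie, an inhibitor of NF-κB, rose from 3.36 ± 0.651 to 8.65 ± 2.32 CPM, while Cxcl5, a neutrophil chemokine, fell from 1.27 ± 0.302 to 0.239 ± 0.0521 CPM (SD, n = 3). Of these 4 calls, 3, 0, 0 and 1 remained without control replicates 1, 2 and 3 and heated replicate 3, and the GC offset gave 9 induced and 1 repressed.

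Immediate-early genes, which respond to signals without new protein synthesis, were mixed. Of 30, 7 were induced and 1 was repressed (median 0.69). Klf4, a Krüppel-like factor, was at 77.1, 78.1 and 67.8 CPM in the control and 169, 366 and 320.3 CPM after heat (log2 fold change 1.94 ± 0.30 SE, adjusted p = 0.0190). Arc rose by 2.15 and Myc, a growth regulator, by 1.44 on the log2 scale. Egr1, an early growth response factor, was at 174, 146 and 118 CPM in the control and 60.1, 92.6 and 61.5 CPM after heat (log2 fold change -1.03 ± 0.25 SE, adjusted p = 0.0492). Of these 8 calls, 3, 1, 1 and 1 remained without control replicates 1, 2 and 3 and heated replicate 3, and 10 genes were induced and 4 repressed with the GC offset. That offset kept 5 of the 7 induced calls and lost Klf2 (adjusted p = 0.0548) and Klf5 (adjusted p = 0.188). None of 15 MAP kinase phosphatases and Sprouty genes passed the test, against 1 induced and 1 repressed with the GC offset. Of 11 mRNA decay factors, the related Zfp36l1 and Zfp36l2, which bind AU-rich mRNAs, moved in opposite directions. Zfp36l1 was at 159.8, 114 and 102 CPM in the control and 507, 1211 and 888 CPM after heat (log2 fold change 2.80 ± 0.37 SE, adjusted p = 0.0127). Zfp36l2 was at 502, 354 and 349.5 CPM in the control and 147, 198 and 177 CPM after heat (log2 fold change -1.21 ± 0.23 SE, adjusted p = 0.0271). Both calls were lost without control replicate 2 or 3 or heated replicate 3.

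Of 7 metallothionein and zinc genes, 4 were induced and 1 was repressed (median 0.97). Mt2, a metallothionein (mm9 chr8:96696518-96697467), was at 107, 122 and 119.8 CPM in the control and 510.2, 1032 and 1047 CPM after heat (log2 fold change 2.89 ± 0.32 SE, adjusted p = 0.00909). Mt1, its neighbour, was at 1025, 892 and 759 CPM in the control and 2856, 4692 and 3915 CPM after heat (log2 fold change 2.10 ± 0.28 SE, adjusted p = 0.0127). Slc30a1, which exports zinc, was at 10.8, 12.4 and 10.8 CPM in the control and 43.2, 40.3 and 39.4 CPM after heat, with a narrow spread (log2 fold change 1.85 ± 0.20 SE, adjusted p = 0.00909). Mtf1, the metal-responsive factor that drives these genes, had a log2 fold change of 0.97. Slc39a10, which imports zinc, was at 44.8, 42.7 and 48.2 CPM in the control and 22.8, 8.23 and 16.1 CPM after heat (log2 fold change -1.52 ± 0.36 SE, adjusted p = 0.0436). Of these 5 calls, 3, 0, 0 and 0 remained without control replicates 1, 2 and 3 and heated replicate 3, and all 5 stayed with the GC offset. Of 26 NRF2 targets, Hmox1, heme oxygenase 1, was alone past the threshold (log2 2.02), which it lost without control replicate 2 or 3 or heated replicate 3, and the GC offset gave 3 induced and 2 repressed.

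All 3 GADD45 genes, which act in growth arrest and DNA repair, were induced (median 1.99). Gadd45a was at 14.7, 12.0 and 14.5 CPM in the control and 45.5, 61.0 and 56.9 CPM after heat (log2 fold change 1.99 ± 0.22 SE, adjusted p = 0.00977). Gadd45g was at 18.8, 23.5 and 22.3 CPM in the control and 47.1, 213 and 193 CPM after heat (log2 fold change 2.81 ± 0.52 SE, adjusted p = 0.0242), with replicate 1 far below the other heated samples, and Gadd45b rose by 1.33. Of 26 p53 targets, 5 were induced and none was repressed (median 0.23), namely Gdf15, Gadd45a, Sesn2, Bbc3 and Cdkn1a. Bbc3, the apoptosis promoter PUMA, rose from 10.5 ± 1.90 to 41.4 ± 16.0 CPM (SD, n = 3), and was the only one of 16 BCL2 family genes to pass. Cdkn1a, a cyclin-dependent kinase inhibitor, rose by 0.80, and Mdm2, the p53 ubiquitin ligase, had a log2 fold change of 0.50 (adjusted p = 0.178). Without control replicate 2 or 3 or heated replicate 3, no GADD45 call remained. The GC offset kept the 3 GADD45 calls and gave 9 induced p53 targets, but Cdkn1a was not among them (adjusted p = 0.0531). Of the 5 p53 target calls, 4, 0, 0 and 0 remained without control replicates 1, 2 and 3 and heated replicate 3.

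Of 17 circadian clock genes, 8 were induced and none was repressed, with a median of 1.17. Per2, a repressor of the clock (mm9 chr1:93312559-93355905), was at 5.62, 3.91 and 4.16 CPM in the control and 31.5, 68.2 and 50.9 CPM after heat (log2 fold change 3.46 ± 0.35 SE, adjusted p = 0.00786). Bhlhe41 and Bhlhe40, repressors of the DEC family, rose from 2.47 ± 0.673 to 15.5 ± 4.18 CPM and from 41.6 ± 3.03 to 162 ± 33.0 CPM (SD, n = 3). Dbp, a clock output factor, was at 3.78, 3.21 and 3.40 CPM in the control and 11.0, 14.7 and 9.48 CPM after heat (log2 fold change 1.76 ± 0.27 SE, adjusted p = 0.0185). The remaining 4, Per3, Tef, Hlf and Gm129, had log2 fold changes of 1.17 to 1.49. Of the 8 calls, 7, 0, 0 and 0 remained without control replicates 1, 2 and 3 and heated replicate 3, and 10 genes were induced with the GC offset. With no unheated sample at 135 min, time of day and heat cannot be told apart for these genes.

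Of 19 fibrillar and basement membrane collagens, 9 were induced and none was repressed, with a median of 1.15. In 16 of the 19 the heated values lay above all controls, against 18.1% of all genes. Col5a1, a chain of type V collagen, was at 561, 458 and 463 CPM in the control and 1226, 2485 and 1854 CPM after heat (log2 fold change 1.91 ± 0.30 SE, adjusted p = 0.0197). Col3a1, the type III collagen chain, was at 772, 676 and 881 CPM in the control and 1764, 3487 and 2803 CPM after heat (log2 fold change 1.79 ± 0.30 SE, adjusted p = 0.0204). Col11a1 rose by 1.78 and Col27a1 by 1.38 on the log2 scale. Heated replicate 1 was the lowest and replicate 2 the highest in these 4 genes. The list had a median GC content of 56.7% against 50.6% over all genes, and the GC offset gave a median of 0.86 with 15 induced. Of the 9 calls, 2, 0, 0 and 0 remained without control replicates 1, 2 and 3 and heated replicate 3.

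Of 38 matrix and adhesion genes, 1 was induced and 3 were repressed (median -0.02). Thbs1, thrombospondin 1, was at 1143, 778 and 743 CPM in the control and 323, 328 and 294 CPM after heat (log2 fold change -1.49 ± 0.24 SE, adjusted p = 0.0199). Loxl2, a collagen crosslinking enzyme, fell from 5.52 ± 1.71 to 1.58 ± 0.272 CPM, and Timp3, a protease inhibitor, rose from 164 ± 3.71 to 357 ± 57.5 CPM (SD, n = 3). Of 25 SRF and YAP targets, Amotl2 and Lats2, feedback regulators of the Hippo pathway, were induced, and Ctgf, a matrix protein, was at 541, 501 and 462 CPM in the control and 157, 212 and 185 CPM after heat (log2 fold change -1.44 ± 0.21 SE, adjusted p = 0.0155). Among 20 TGF-β and BMP targets 3 were called, of which Smad7 and Ski, inhibitors of SMAD signalling, were induced. The heated values of Thbs1 and Ctgf all lay below the controls. With the GC offset, 3 matrix genes were induced and 5 repressed, against 5 and 2 of the SRF and YAP targets and 8 and 2 of the TGF-β and BMP targets. Of the 4, 3 and 3 calls of these lists, none remained without control replicate 2 or 3 or heated replicate 3.

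**Figure D4:**
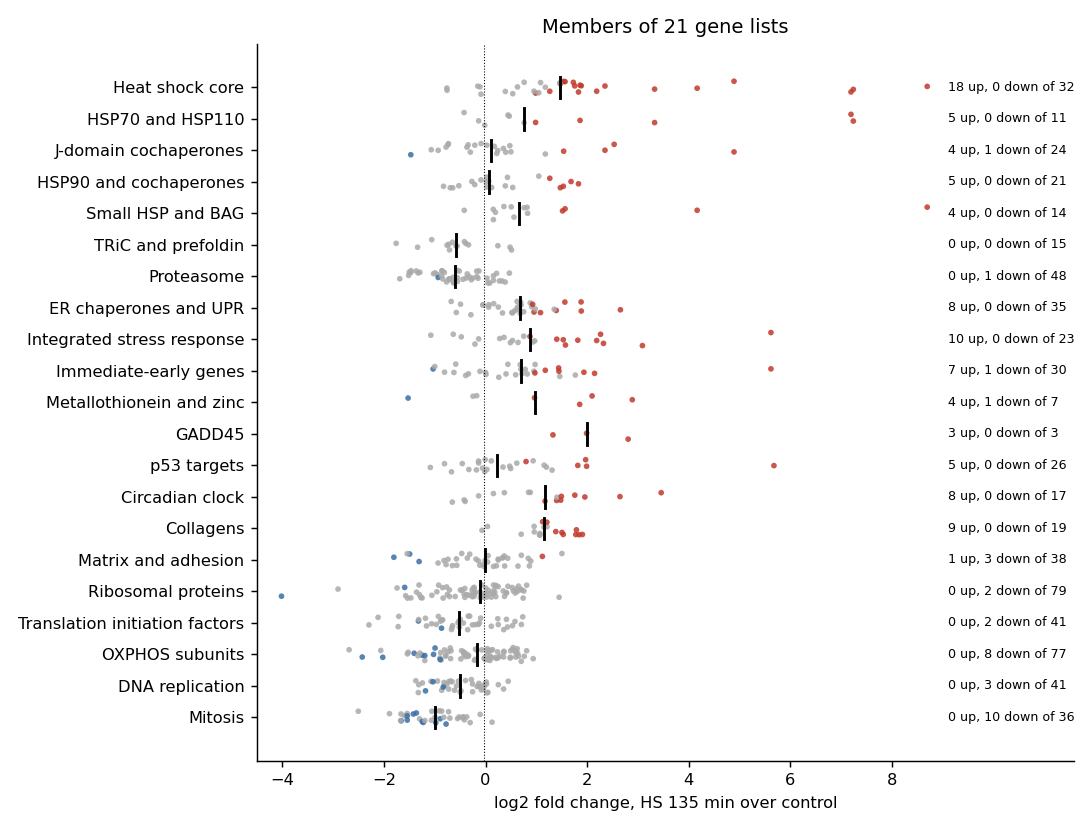
Each point is a tested member of 1 of 21 gene lists (y axis) at its log2 fold change, HS 135 min over control (x axis), red where induced, blue where repressed and grey otherwise, with a black bar at the median of the list. The dotted line is the median of all genes (-0.02), and the numbers on the right count members past the threshold, from 18 of 32 core heat shock genes up to 10 of 36 mitosis genes down.

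Of 36 mitosis genes, none was induced and 10 were repressed, with a median of -0.99, and 23 had all heated values below all controls. Cdc20, an activator of the anaphase-promoting complex, was at 323, 373 and 353 CPM in the control and 100.3, 144 and 115 CPM after heat (log2 fold change -1.54 ± 0.21 SE, adjusted p = 0.0146). Kif23, a motor of cytokinesis, was at 75, 125 and 113 CPM in the control and 40.8, 23.1 and 34.8 CPM after heat (log2 fold change -1.66 ± 0.29 SE, adjusted p = 0.0222). Ccnf, an F-box cyclin, was at 180.0, 157 and 146 CPM in the control and 90.8, 79.4 and 74.9 CPM after heat (log2 fold change -0.98 ± 0.19 SE, adjusted p = 0.0276). Plk1 and Aurkb, mitotic kinases, were repressed as well (log2 -0.89 and -0.78), together with Ccnb2, Cdc25c, Kif20a, Kif2c and 6720463M24Rik. Depdc1a, a mitotic gene among the 15 largest falls, went from 4.92 ± 0.660 to 0.874 ± 0.256 CPM (SD, n = 3). Of 41 DNA replication genes, Rrm1, a ribonucleotide reductase subunit, Orc6l, an origin protein, and Tk1, thymidine kinase, were repressed (log2 -1.03, -1.18 and -0.83), and none was induced. The GC offset gave 19 repressed mitosis genes and 10 repressed replication genes. Of the 10 mitosis calls, 4, 0, 0 and 0 remained without control replicates 1, 2 and 3 and heated replicate 3, and of the 3 replication calls, 0, 0, 0 and 0.

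Of 26 G1 regulators, 4 were induced, namely Myc, Cdkn1a, Mxd1, an antagonist of MYC, and E2f2, and none was repressed. Among 28 replication-dependent histone genes, whose mRNAs lack a poly(A) tail, Hist3h2a was induced and Hist1h2ab repressed. Both were low, Hist3h2a at 3.10 ± 0.484 and 10.4 ± 2.98 CPM and Hist1h2ab at 1.20 ± 0.142 and 0.321 ± 0.0990 CPM in the control and after heat (SD, n = 3). With the GC offset 8 G1 regulators were induced, Cdkn1a not among them, and 3 repressed, and 2 histone genes were induced and 4 repressed. None of these 6 calls remained without control replicate 2 or 3 or heated replicate 3.

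Of 77 subunits of oxidative phosphorylation, none was induced and 8 were repressed (median -0.18). Cox5a, of cytochrome c oxidase (mm9 chr9:57369039-57380233), was at 227, 159 and 156 CPM in the control and 34.8, 32.3 and 33.7 CPM after heat (log2 fold change -2.43 ± 0.22 SE, adjusted p = 0.00580). Its heated values were nearly equal, and it passed the threshold in 5 of 6 fits with a sample left out. Uqcrfs1, the Rieske protein, was at 45.7, 53.3 and 57.0 CPM in the control and 24.1, 14.7 and 19.99 CPM after heat (log2 fold change -1.41 ± 0.25 SE, adjusted p = 0.0215). Sdhd, of succinate dehydrogenase, was at 111, 95.3 and 102 CPM in the control and 49.1, 50.1 and 35.4 CPM after heat (log2 fold change -1.20 ± 0.21 SE, adjusted p = 0.0226). The other 5 were Atp5l, Atp5e, Atp5f1, Atp5j2 and 1110020P15Rik, with log2 fold changes between -2.02 and -0.89. Of the 8 calls, 3, 1, 1 and 0 remained without control replicates 1, 2 and 3 and heated replicate 3, and 15 subunits were repressed and 1 was induced with the GC offset. Of 21 glycolysis genes only Ldha, lactate dehydrogenase A, passed, at 1496, 1162 and 1233 CPM in the control and 589, 559 and 575 CPM after heat (log2 fold change -1.18 ± 0.21 SE, adjusted p = 0.0220), a call lost without control replicate 2 or 3 or heated replicate 3. With the GC offset 4 glycolysis genes were repressed.

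Repressed calls among translation genes made up 4.88% of initiation factors, 2.56% of nucleolar genes and 2.53% of ribosomal protein genes. Over all genes the shares were 2.64% repressed and 4.75% induced. Of 41 initiation factors 2 were repressed (median -0.51), of 39 nucleolar genes 1 (median -0.45) and of 79 ribosomal protein genes 2 (median -0.12), and none was induced in the 3 lists. Eif3f, a subunit of eIF3, was at 469.5, 429.6 and 371 CPM in the control and 231, 121 and 156 CPM after heat (log2 fold change -1.32 ± 0.27 SE, adjusted p = 0.0316). Eif1 fell by 0.87 and Polr1b, a subunit of RNA polymerase I, fell by 0.88 on the log2 scale. Rpl9 was at 593, 837 and 777 CPM in the control and 307, 234 and 191 CPM after heat (log2 fold change -1.59 ± 0.26 SE, adjusted p = 0.0199). Rpl26 was at 2.56, 10.6 and 6.65 CPM in the control and 0.538, 0.129 and 0.530 CPM after heat (log2 fold change -4.02 ± 0.68 SE, adjusted p = 0.0204), but ribosomal protein genes share reads with near-identical pseudogenes, and its count is uncertain. Of 34 SR proteins and hnRNPs, Sfrs5, a splicing factor raised by cold, was at 117, 164 and 158 CPM in the control and 42.2, 49.5 and 46.3 CPM after heat (log2 fold change -1.67 ± 0.21 SE, adjusted p = 0.0124). Fusip1 and Hnrnpa0 were repressed too (log2 -0.92 and -1.03), and Fusip1 lost its call with the GC offset (log2 -0.37, adjusted p = 0.304). Sfrs5 was also the only call among 3 temperature-sensitive RNA-binding proteins, with Cirbp and Rbm3, of which 1 had a positive log2 fold change. The GC offset repressed 12 initiation factors, 8 nucleolar and 8 ribosomal protein genes, and it turned the median of the splicing list from -0.08 to 0.27. None of these 8 calls remained without control replicate 2 or 3 or heated replicate 3.

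**Figure D5:**
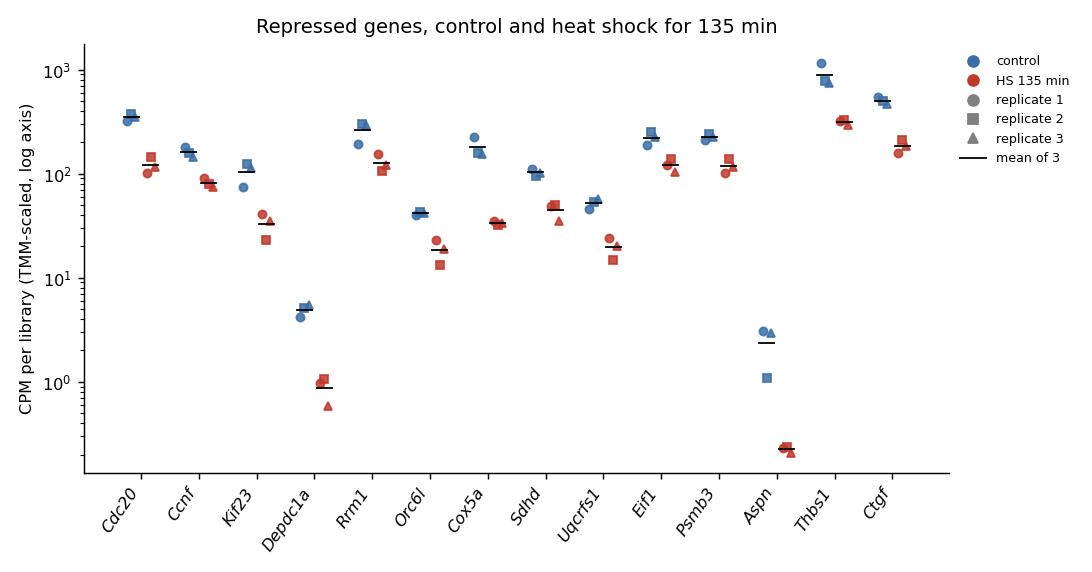
CPM of 14 repressed genes (x axis) of mitosis, replication, respiration, translation, the proteasome and the matrix is shown on a log y axis for each control sample (blue) and each HS 135 min sample (red), with marker shape giving the replicate and the line the mean of 3. All heated values lie below all control values in each gene, and those of Cox5a lie between 32.3 and 34.8 CPM.

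Other large falls were in genes of varied roles. Sec61g, a subunit of the ER translocon, was at 101, 193 and 169 CPM in the control and 37.1, 5.11 and 20.7 CPM after heat (log2 fold change -2.88 ± 0.64 SE, adjusted p = 0.0391). Lepr, the leptin receptor, was at 11.5, 14.0 and 13.1 CPM in the control and 3.12, 0.841 and 2.15 CPM after heat (log2 fold change -2.65 ± 0.46 SE, adjusted p = 0.0209). In both, heated replicate 2 was the lowest. Aspn, asporin, a small matrix proteoglycan, was at 3.10, 1.08 and 2.91 CPM in the control and 0.231, 0.237 and 0.205 CPM after heat (log2 fold change -3.38 ± 0.47 SE, adjusted p = 0.0155), and Omd, osteomodulin, its relative, had a log2 fold change of -2.54. Prl2c2, a prolactin family gene with close paralogs, Pbld, BC023882, Mcts1, Gm9199, Chrna1, BB287469 and Stard8 had log2 fold changes of -3.73 to -2.48. None of these 12 genes was past the threshold without control replicate 2 or 3 or heated replicate 3, save Aspn, which held without control replicate 2.

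Among 13 noncoding RNA genes, 3 were induced. Rmrp, the RNA of a mitochondrial and nucleolar ribonuclease, was at 0.415, 1.01 and 0.512 CPM in the control and 5.55, 67.7 and 116 CPM after heat (log2 fold change 6.59 ± 1.09 SE, adjusted p = 0.0201). Rpph1, the RNA of ribonuclease P, was at 0.415, 0.799 and 0.356 CPM in the control and 2.41, 18.6 and 34.3 CPM after heat (log2 fold change 5.12 ± 0.93 SE, adjusted p = 0.0240). Both are RNA polymerase III products without a poly(A) tail, and in both the heated samples spread widely, with replicate 1 lowest and replicate 3 highest. Neither passed without control replicate 2 or 3 or heated replicate 3, and how far poly(A) selection differed between samples was not tested. H19, an imprinted RNA, rose by 2.11, and lost the call in the same 3 fits. The fit with the GC offset gave 5 induced and 1 repressed. No member of this list had a GC value, so the offset corrected none of them and is no check on GC content here. Snhg9, a snoRNA host gene that is not on that list, fell most of the 336 repressed genes, at 63.2, 23.7 and 41.1 CPM in the control and 2.26, 0.905 and 0.564 CPM after heat (log2 fold change -5.09 ± 0.63 SE, adjusted p = 0.0122). It was not past the threshold without control replicate 3 or heated replicate 3. Of 260 genes named Zfp and a number, mostly zinc finger repressors, 21 (8.08%) were induced and 3 repressed, with a median of 0.19. Zfp786, with 0.366, 0.417 and 0.512 CPM in the control and 2.77, 4.07 and 3.93 CPM after heat, rose most of those named (log2 fold change 3.05 ± 0.32 SE, adjusted p = 0.00792). Of the 24 Zfp calls, 10, 0, 0 and 0 remained without control replicates 1, 2 and 3 and heated replicate 3, and the GC offset gave 47 induced and 12 repressed.

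Several housekeeping groups held no call in this test. None of 24 genes of cholesterol synthesis, 34 of autophagy or 36 of the lysosome passed, with medians of 0.06, 0.01 and 0.20. With the GC offset 1, 4 and 4 of these were induced and 0, 3 and 0 repressed, and with all 6 groups in 1 fit 3, 4 and 6 were induced and 0, 5 and 0 repressed. For cholesterol and autophagy the sign of the median turned when samples were scaled to total counts (-0.09 and -0.16), a scaling that moved the median of all genes by -0.17. Sqstm1, an autophagy receptor, had 667 ± 49.1 and 1290.3 ± 369 CPM (SD, n = 3, adjusted p = 0.0601). Of 20 aminoacyl-tRNA synthetases 1, Sars, was induced (log2 1.17), and it lost the call without control replicate 2 or 3 or heated replicate 3.

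The 135 min samples were also compared with the 3 samples heated for 45 min, to see which changes went on. No gene passed the adjusted threshold in the edgeR quasi-likelihood test. Replicate 3 of the 45 min group stood apart, with r across genes of 0.951 and 0.935 to replicates 1 and 2, which correlated by 0.986. In Sec61g the 45 min samples were at 4.85, 6.49 and 147 CPM, and in Lepr at 0.782, 0.860 and 9.02 CPM, with replicate 3 within or near the range of the controls. At an unadjusted p under 0.05, 658 genes (5.17%) were higher and 823 (6.46%) lower at 135 min. The edgeR exact test gave 108 higher and 91 lower genes and DESeq2 194 and 209. Of the 32 core heat shock genes, 19 were higher and 2 lower at an unadjusted p under 0.05, with a median log2 difference of 1.08 against -0.02 over all genes. Of 35 ER genes 12 were higher and none lower (median 0.49), and of 17 clock genes 6 and none. Of the 19 collagens 1 was higher and 1 lower (median 0.06), of 30 immediate-early genes 2 and 7 (median -0.29), and of 36 mitosis genes none and 8 (median -0.28). Without 45 min replicate 3, 1277 genes (10%) were higher and 1381 (10.8%) lower at an unadjusted p under 0.05, and 0 and 2 passed the adjusted threshold. Then 23 core heat shock genes were higher and 2 lower. Of the ER genes 11, of the clock genes 3 and of the collagens 1 were higher, and none was lower. Immediate-early genes had 3 higher and 9 lower, and mitosis genes 1 and 6. The medians of the collagens (-0.21) and of the mitosis genes (0.04) changed sign. Both comparisons share the 135 min samples, so their values are set side by side without a test across them.

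Clu, at 7.59, 6.12 and 5.82 CPM at 45 min, had the smallest p of the named genes (log2 difference, 135 min minus 45 min, 3.43, adjusted p = 0.126), and all 3 later values lay above it. Cox5a was at 218, 293 and 125 CPM at 45 min (log2 difference -2.76, adjusted p = 0.126). Hspe1 was at 106, 134 and 183 CPM at 45 min, with a log2 difference of 1.85 (adjusted p = 0.143). Hspa1b was at 261, 209.5 and 42.7 CPM at 45 min (log2 difference 2.20, adjusted p = 0.373). By contrast Col5a1 was at 1507, 1932 and 746 CPM at 45 min, with a log2 difference of 0.30 (adjusted p = 0.876). These 45 min levels were scaled within the comparison of the 2 heated times.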

How the data were processed

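Per the labels and the study's methods, mRNA of NIH3T3 cells was sequenced on an Illumina HiSeq and mapped to mm9 with RefSeq genes on the DNAnexus platform. Aligner, counter, strand setting and versions are not given in the sources used here, so overlapping and antisense genes cannot be told apart. The authors deposited an expected count of reads per gene and library, and 23.9% to 26.8% of its values under 100 had decimals. The authors also give RPKM, a Z score of the RPKM and a signal, the RPKM divided by its root mean square. Of these only the counts were tested, after rounding to whole numbers, and the RPKM served 1 alternative.

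edgeR 4.0.16 in R 4.3.3 was fitted to the 3 heated and 3 control samples with TMM scaling and the quasi-likelihood test. The 12731 of 20207 genes with at least 1 read in each of the 18 samples entered, and p-values were adjusted by Benjamini-Hochberg. Genes under an adjusted p of 0.05 are called induced or repressed. CPM are TMM-scaled, the SE is derived from the F statistic, and a list is described by counts and its median, with no set test. The share of reads was tested with an exact permutation test. GC content came from protein-coding GENCODE transcripts on mm9 (97.4% of genes), and promoters from RefSeq on GRCm38.p6. Genes without a GC value got no correction from the GC offset. In simulated data with 200 of 12731 genes changed, this comparison recovered 79% of changes of log2 2 and 10% of changes of log2 1. The changed genes all had a mean over 1 CPM, and the simulated samples had no deviations with GC content. These shares therefore do not cover lower genes or the GC deviations of the real samples. Alternatives were other filters, DESeq2 1.42.0, other scalings, all 6 groups in 1 fit, a surrogate variable (sva 3.50.0), a GC offset, a replicate block and each sample left out.

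The genes named are the 15 largest rises and falls whose groups did not overlap and whose higher group averaged 50 reads or more, up to 4 called members of each list in each direction (2 where none was called), genes that the study's mRNA-seq text names, the 10 most abundant called genes and induced genes with a printed full element. Other names were chosen after their values were seen. The samples, lists and genes were chosen with earlier results of these data known. Some genes that this rule takes are not reported here.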

Additional observations from a re-analysis of the deposited data

Results flagged for a closer look

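The filter on reads left out genes with none in some library. Among these, 5 had 0 reads in all 3 controls and at least 10 reads in each HS 135 min sample, and none showed the opposite. Their values lie outside the test, with 3 reads in the shallowest control as the floor. Cys1, a protein of primary cilia, held 34, 70 and 65 reads after heat (169 in all), at least 12.8-fold above that floor. Tlr9, a receptor for DNA, held 23, 41 and 41 reads (105 in all), at least 7.93-fold higher. Prex1, an exchange factor for RAC, held 14, 42 and 36 reads (92 in all), and Sult4a1, a sulfotransferase, 15, 39 and 38 (92 in all), at least 7.01-fold and 6.98-fold higher. Xirp1, an actin-binding muscle protein, held 12, 24 and 39 reads (75 in all), at least 5.61-fold higher. At 45 min each had 0 to 4 reads in a sample. In all 5, heated replicate 1 held the fewest reads.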

How the results depend on the processing

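Against control, induced and repressed genes numbered 1164 and 821 with the edgeR exact test, 1232 and 927 with DESeq2, 1829 and 1414 with all 6 groups in 1 fit, 2398 and 2618 with a surrogate variable, 1434 and 1182 with the GC offset, and 350 and 192 without control replicate 1. Leaving out 1 sample each gave 10 to 1535 induced and 0 to 932 repressed genes. Other filters, DESeq2 size factors, total counts, a 2-fold threshold and the GC offset with the replicate block kept both counts within 1.5 times, although total counts gave 498 and 426, a share of higher calls of 53.9% against 64.3%. Against 45 min, higher and lower genes numbered 108 and 91 (exact test), 194 and 209 (DESeq2), 3 and 0 (total counts), 459 and 446 (all 6 groups), 1720 and 1616 (surrogate variable) and 76 and 35 (GC offset). With 1 sample left out there were 0 higher and 0 to 2 lower. With the replicate number as a block, 0 genes were induced and 0 repressed. Same-numbered deviations correlated by -0.36, -0.32 and 0.21. Those deviations also followed GC content, so this check cannot tell whether the numbers pair the samples. Of 148 named genes 129 were called, 0 under the block and 10 to 139 with 1 sample left out. The share of reads on core genes stayed 1.79 to 2.07 percentage points higher. Signs turned only for Hsf4 (-0.0104 with the GC offset and -0.0129 with the block too) and Hsf1 (-0.0204, -0.0232 and, with the surrogate variable, -0.0387). Other causes were not tested. Counting depth limits genes near 3 reads.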
